A study of Homo sapiens with 6 samples.

Results

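The cancer-testis antigen families examined here are the X-linked SPANX, MAGEA, MAGEB, MAGEC, GAGE, PAGE, XAGE, CT45A, SSX and CTAG genes, picked by gene symbol. The symbols matched 84 of the 60233 genes with TPM values, and all 84 lay on chromosome X. RNA was sequenced in bulk from UMUC3 cells, a human bladder carcinoma line, 14 days after they were placed in the bladders of C57 nude mice. There were 3 libraries of GANAB knockdown cells and 3 of control cells, and all 6 came from the same line in the same host strain. The labels do not say how the knockdown was made, whether either population was a clone, or whether each library came from its own mouse. The deposited tables head the knockdown columns KO, while the labels call these cells knockdown. The p-values below therefore measure only the spread between these libraries, which may be technical. GANAB is the catalytic subunit of glucosidase II, which trims glucose from N-glycans in the endoplasmic reticulum.

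Cancer-testis antigens are proteins whose genes are active in male germ cells, silent in most other adult tissues and switched on again in many tumours, where peptides from them can be seen by T cells. Methylation of their promoters keeps many of these genes silent in somatic cells, and drugs that block DNA methylation can switch them on. The X-linked families arose by recent duplication, so their copies are often nearly identical in sequence. SPANX proteins are found with the nucleus of spermatids, and MAGE proteins bind RING-type ubiquitin ligases.

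GANAB itself was at 231, 238 and 231 CPM (counts scaled to library size) in knockdown libraries 1, 2 and 3, against 685, 825 and 661 CPM in control libraries 1, 2 and 3. It fell to 32.2% of control (log2 fold change -1.63, SE 0.14, edgeR quasi-likelihood test with Benjamini-Hochberg adjustment, adjusted p = 0.00239). The knockdown libraries held 36619291 to 40039584 estimated counts and the control libraries 11737837 to 36381218. In control library 1, the mitochondrial rRNA gene MT-RNR2 took 17.5% of all counts, which lowers every other gene's TPM there. The knockdown libraries also resembled each other far more than the control libraries did, with a biological coefficient of variation of 10.7% in knockdown and 53.4% in control.

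The upstream sequences of some copies are much alike. The 4 SPANX genes shown are those that rose in knockdown, and the MAGEA genes share a short motif. The SPANX stretch was sought in those 4 genes alone, so that all 4 hold it follows from the choice. SPANXD, the other SPANX gene with counts, was not called. The 100 bases before the SPANXA1 start were 98.0% identical to their best match at SPANXC and SPANXB1. At SPANXD the best match was 54.0%, but the windows were not placed alike. The start used for SPANXA1 lies inside its GENCODE gene (chrX:141583674-141585011). The SPANXD window (chrX:141698690-141698989) lies at the upstream edge of its gene (141698739). The 54.0% therefore does not show whether SPANXD holds the stretch. Whether these sequences bear on the rise was not tested. The stretches are the 100 bases before the annotated start, from RefSeq (GRCh38.p14). RefSeq and GENCODE place some starts apart. The SPANXA1, SPANXA2 and MAGEA11 stretches lie inside the GENCODE genes, and those of SPANXB1, MAGEA3 and MAGEA6 do in part. Not all of these bases are therefore upstream of the genes as GENCODE draws them. RefSeq promoters were matched for 63 of the 84 genes, and for 12 of the 14 genes with counts. In the SPANX lines, capitals mark the longest stretch common to SPANXA1, SPANXA2, SPANXB1 and SPANXC, which is 60 bases long. SPANXA1 (chrX:141584739-141584838, minus strand) and SPANXA2 (chrX:141589608-141589707, plus strand) had the same 100 bases. SPANXB1 lies at chrX:141002494-141002593 on the plus strand and SPANXC at chrX:141242518-141242617 on the minus strand.
SPANXA1 and SPANXA2: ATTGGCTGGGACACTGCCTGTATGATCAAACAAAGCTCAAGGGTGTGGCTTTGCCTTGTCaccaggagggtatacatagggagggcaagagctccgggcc
SPANXB1: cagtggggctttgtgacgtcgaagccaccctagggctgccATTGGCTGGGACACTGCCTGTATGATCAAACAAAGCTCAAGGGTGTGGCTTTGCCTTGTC
SPANXC: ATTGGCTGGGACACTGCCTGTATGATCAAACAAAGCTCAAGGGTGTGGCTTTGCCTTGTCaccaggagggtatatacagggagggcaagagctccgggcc

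In the MAGEA lines, capitals mark GGATGTG, letters picked by reading these promoters. MAGEA6 (chrX:152769690-152769789, minus strand) and MAGEA3 (chrX:152698694-152698793, plus strand) had the same 100 bases. MAGEA4 has 5 starts in the table and the stretch at chrX:151912374-151912473 on the plus strand is shown, and MAGEA11 is at chrX:149711960-149712059 on the plus strand.
MAGEA3 and MAGEA6: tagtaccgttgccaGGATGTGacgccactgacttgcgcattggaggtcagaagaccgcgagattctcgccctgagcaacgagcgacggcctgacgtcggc
MAGEA4: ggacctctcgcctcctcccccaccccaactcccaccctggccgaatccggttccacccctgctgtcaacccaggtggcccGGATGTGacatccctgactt
MAGEA11: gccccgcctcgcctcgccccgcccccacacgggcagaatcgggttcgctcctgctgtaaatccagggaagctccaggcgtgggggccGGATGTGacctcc

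Read on both strands over the 250 bases before each start, GGATGTG was present for all 10 MAGEA genes in the table (16 of 16 windows), for 0 of 9 SPANX genes and for 1 of 3 MAGEC genes. The MAGEC gene with it was MAGEC1, for which no counts were listed. GGATGTG was also present before some starts of MAGEB1, MAGEB2, MAGEB16, SSX2 and SSX2B, for which no counts were listed either. Among all 35116 promoter windows, 3.52% held it. The letters were picked from these MAGEA promoters, so their presence there follows from the choice and is no test against that share. The MAGEA windows held 5 to 18 CG dinucleotides and the SPANX windows 1 to 8, beside a median of 11 over all windows. These are descriptions of sequence, and no methylation or binding was measured.

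Most of the 84 genes were hardly detected in either group. Counts were listed for 14 of them, namely 6 MAGEA, 5 SPANX, 2 MAGEC and 1 XAGE gene. Of the 70 without counts, 51 were listed at 0 TPM in all 6 libraries and 19 were above 0 in some, with a highest value of 0.663 TPM (MAGEA2B). No MAGEB, GAGE, PAGE, CT45A, SSX or CTAG gene had counts listed. The CTAG genes without counts include CTAG1A and CTAG1B, which encode the antigen NY-ESO-1. Within the MAGEA family 9 of 15 genes were without counts, and within the SPANX family 5 of 10.

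Of the 14 genes with counts, 13 passed the filter on low counts, and MAGEA5 did not. In GANAB knockdown libraries, 5 of the 13 rose (SPANXB1, SPANXA2, SPANXA1, SPANXC and MAGEC3), beside 4.59% of all 19430 genes tested. By edgeR 0 of the 13 fell, beside 3.72% of all genes. At an unadjusted p under 0.05, 2 were lower, 1 fell by the DESeq2 Wald test and 2 fell by limma-voom with sample quality weights. Of all 19430 genes, 1802 fell by that DESeq2 test and 2013 by that limma-voom fit. The median log2 fold change was 0.93 over the 13 genes and 0.03 over all genes tested. The groups did not overlap, with knockdown higher, for 6 of the 13 genes, beside 21.9% of all genes, and with knockdown lower for 3 genes, beside 15.7%. Since low genes that passed the filter may have done so through the group where they were high, these counts describe the 13 genes and not the families.

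Of the 5 SPANX genes with counts, 4 rose in GANAB knockdown. Summed over the 5 SPANX genes with counts, expression was 75.1, 69.9 and 72.6 CPM in knockdown libraries 1, 2 and 3, against 4.93, 2.84 and 7.90 CPM in control libraries 1, 2 and 3. All 3 knockdown libraries lay far above the highest control library. The sum rose 14.1-fold in knockdown cells (log2 fold change 3.82, SE 0.35, edgeR adjusted p = 0.00293 in a fit over all genes with each family replaced by its sum). It also passed the test after leaving out each library in turn, with log2 fold changes of 3.57 to 4.16. The exact 2-sided permutation test over 3 against 3 libraries gave p = 0.1, the smallest that 20 splits allow. With the 3 knockdown libraries counted as 1 sample, the fold was nearly the same (log2 fold change 3.81) and the call was lost (edgeR adjusted p = 0.266). In these bulk libraries, more cells that express SPANX genes and more SPANX RNA per cell cannot be told apart.

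**Figure D1:**
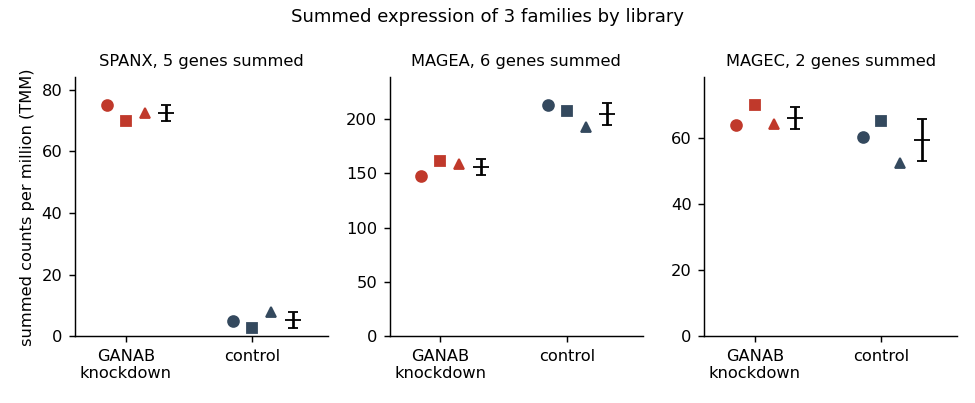
Summed expression in CPM (vertical axes, from 0) of the SPANX, MAGEA and MAGEC genes with counts in each GANAB knockdown and control library. Circles, squares and triangles are libraries 1, 2 and 3, and black bars are mean ± SD (n = 3). The SPANX sums were 69.9 to 75.1 CPM in knockdown and 2.84 to 7.90 CPM in control, while the MAGEC sums of the groups overlapped in CPM.

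SPANXB1 (ENSG00000227234, chrX:141002591-141003706, plus strand, GRCh38) was the largest part of the SPANX RNA in knockdown libraries. It was at 50.1, 45.1 and 48.9 CPM in knockdown libraries 1, 2 and 3, against 2.46, 1.05 and 2.80 CPM in control libraries 1, 2 and 3. The groups were far apart, with a mean of 48.0 ± 2.59 CPM in knockdown and 2.10 ± 0.93 CPM in control (SD, n = 3 each). SPANXB1 rose 23.0-fold (log2 fold change 4.52, SE 0.34, edgeR adjusted p = 0.00142) and ranked 25th by p among all genes tested. It passed the test in all 6 fits that left out a library. Per length, SPANXB1 was at 191 to 200 TPM in knockdown libraries and 4.44 to 11.6 TPM in control libraries.

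The longest annotated coding transcripts of SPANXA2 and SPANXA1 are identical over 691 bases, so the split of reads between the genes is an estimate. The lengths behind their TPM values differed. Knockdown library 1 had 18.6 CPM and 90.1 TPM for SPANXA2, against 3.50 CPM and 8.23 TPM for SPANXA1. SPANXA2 (ENSG00000203926) was at 18.6, 18.4 and 20.7 CPM in knockdown libraries 1, 2 and 3, against 1.95, 1.05 and 5.02 CPM in control libraries 1, 2 and 3. SPANXA1 (ENSG00000198021) was at 3.50, 4.53 and 1.70 CPM in knockdown, against 0.110, 0.421 and 0 CPM in control. As a sum that does not depend on the split between SPANXA1 and SPANXA2, the pair was at 22.1, 22.9 and 22.4 CPM in knockdown libraries, against 2.06, 1.47 and 5.02 CPM in control libraries. Knockdown libraries were higher without overlap for each gene and for the pair. The edgeR fit gave SPANXA2 a 7.42-fold rise (adjusted p = 0.020) and SPANXA1 a 17.1-fold rise (adjusted p = 0.0360). Both genes overlap the non-coding SPANXA2-OT1, which was not called itself (edgeR adjusted p = 0.727).

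SPANXC (ENSG00000198573) was low but followed the same direction, at 2.51, 1.17 and 1.20 CPM in knockdown libraries, against 0.147, 0 and 0.0823 CPM in control libraries. It rose 19.1-fold by edgeR (adjusted p = 0.0347), against only 5 counts in all 3 control libraries together. SPANXD had 3 to 28 counts per knockdown library and 0 to 7 per control library, with overlapping groups (log2 fold change 0.93, edgeR adjusted p = 0.671). Its transcript is 99.0% identical to that of SPANXC over the shorter one, and 98.1% identical to that of SPANXA1. The split of reads among these genes is therefore an estimate too, and so is the contrast between SPANXC and SPANXD. SPANXB1 stands further off, 89.1% identical to SPANXA1 over the shorter transcript.

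The calls of SPANXA2, SPANXA1 and SPANXC were not held by every fit. SPANXA2 was no longer past the threshold without knockdown library 1, 2 or 3 (edgeR adjusted p = 0.114, 0.0999 and 0.112) or without control library 1 (0.0539). SPANXA1 lost its call in the same 4 fits (edgeR adjusted p = 0.169, 0.179, 0.125 and 0.0824). SPANXC lost its call without each knockdown library (edgeR adjusted p = 0.20, 0.138 and 0.148) and without control library 3 (0.0569). With all 6 libraries, limma-voom with sample quality weights or with 1 weight per group gave no call for SPANXA1 (adjusted p = 0.132 and 0.307) or SPANXC (0.123 and 0.211). The direction was kept in each of these fits. Over the whole table, the 3 fits without a knockdown library called only 53 to 82 genes higher, against 892 with all 6 libraries.

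**Figure D2:**
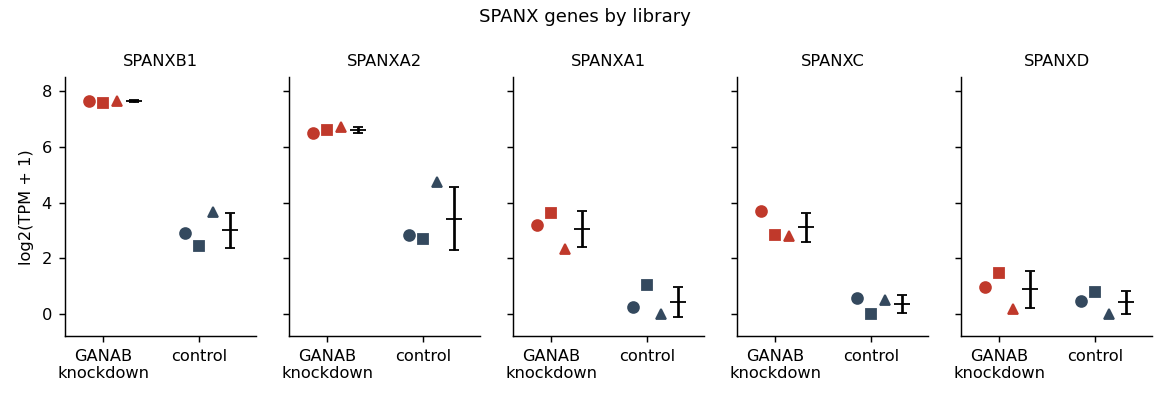
Log2(TPM + 1) of the 5 SPANX genes with counts, by library. Circles, squares and triangles are libraries 1, 2 and 3 of each group, and black bars are mean ± SD (n = 3). SPANXB1, SPANXA2, SPANXA1 and SPANXC were higher in every knockdown library than in any control library, and SPANXD overlapped.

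The make-up of the SPANX RNA differed too. SPANXB1 made up 64.2%, 62.6% and 63.7% of the summed SPANX TPM in knockdown libraries, against 46.5%, 38.0% and 31.0% in control libraries. SPANXA2 made up 28.9%, 31.2% and 33.0% in knockdown, against 44.6%, 46.7% and 67.9% in control. Neither share overlapped between the groups in TPM or in counts, although the control shares rest on 54 to 134 SPANX counts per library. The SPANXA2 share of TPM also depends on the estimated split with SPANXA1 and on the length used. Of the SPANX counts, SPANXA2 held 24.8%, 26.3% and 28.6% in knockdown, against 39.6%, 37.0% and 63.5% in control. All 84 genes together summed to 479, 493 and 488 TPM in knockdown libraries, against 158, 230 and 245 TPM in control libraries. SPANX genes were 65.0%, 61.9% and 64.1% of that total in knockdown and 8.81%, 5.09% and 15.3% in control. Without the SPANX genes the totals overlapped, at 168 to 188 TPM in knockdown and 144 to 218 TPM in control. The SPANX genes alone averaged 310 ± 3.97 TPM in knockdown and 21.0 ± 14.3 TPM in control (SD, n = 3 each).

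The MAGEA genes were the most abundant family in control libraries and their sum was lower in knockdown, a difference that passed with some tools and not with edgeR. Summed over 6 genes, they were at 148, 161 and 158 CPM in knockdown libraries 1, 2 and 3, against 213, 208 and 193 CPM in control libraries 1, 2 and 3. The CPM values did not overlap and were lower in knockdown (log2 fold change -0.39, SE 0.12), yet the sum missed the threshold by edgeR (adjusted p = 0.0890). It passed by the DESeq2 Wald test (adjusted p = 0.00655) and by limma-voom with sample quality weights (adjusted p = 0.0171). In TPM the sums overlapped, at 122 to 136 in knockdown and 116 to 173 in control. Without control library 2 the sum passed (log2 fold change -0.38, edgeR adjusted p = 0.0146), in a fit that called 2808 genes higher and 2796 lower, against 892 and 722 with all 6 libraries.

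MAGEA4 (ENSG00000147381), a target of engineered T cells in cancer therapy, was at 57.3, 63.2 and 62.3 CPM in knockdown libraries 1, 2 and 3, against 86.6, 63.8 and 80.9 CPM in control libraries 1, 2 and 3. In CPM knockdown was lower without overlap, though knockdown library 2 and control library 2 were almost level (log2 fold change -0.34, SE 0.15, edgeR adjusted p = 0.211). By limma-voom with sample quality weights it passed (adjusted p = 0.0264). MAGEA4 overlaps its antisense gene MAGEA4-AS1. The labels do not say whether the counting used strand, and without strand the reads of this gene pair cannot be told apart.

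MAGEA6 (ENSG00000197172) was at 52.2, 61.1 and 58.0 CPM in knockdown libraries, against 72.4, 94.8 and 69.1 CPM in control libraries (log2 fold change -0.46, SE 0.16, edgeR adjusted p = 0.122). MAGEA3 (ENSG00000221867), an antigen tried in cancer vaccines, was at 6.58, 6.29 and 6.88 CPM in knockdown, against 9.82, 8.88 and 3.95 CPM in control, with overlap (edgeR adjusted p = 0.766). Its log2 fold change was -0.21 in the count test and turned to 0.05 to 0.07 on log2 TPM. The 2 transcripts are 98.6% identical, so they are best read as a pair, at 58.8, 67.4 and 64.9 CPM in knockdown, against 82.2, 104 and 73.1 CPM in control. The pair did not overlap between the groups.

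MAGEA10 (ENSG00000124260) was at 30.4, 29.5 and 30.0 CPM in knockdown libraries, against 43.8, 40.2 and 38.7 CPM in control libraries. The groups did not overlap (log2 fold change -0.45, SE 0.13). It missed the threshold by edgeR (adjusted p = 0.0739) and passed by DESeq2 (adjusted p = 0.00578) and by limma-voom with sample quality weights (adjusted p = 0.0223). It shares its locus with a readthrough transcript, MAGEA10-MAGEA5, so some reads could belong to either. In TPM the groups overlapped for MAGEA4, MAGEA6 and MAGEA10 alike. Without control library 2, MAGEA4, MAGEA6 and MAGEA10 passed (edgeR adjusted p = 0.00609, 0.0434 and 0.0106).

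The remaining MAGEA genes with counts were near the limit of detection. MAGEA11 had 19 to 27 counts in each knockdown library and 0 to 4 in each control library (log2 fold change 3.19, SE 1.11, edgeR adjusted p = 0.120). MAGEA5 had 7 to 22 counts in each knockdown library and 0 in each control library, which makes it at least 7.33-fold higher in knockdown against a floor of 3 counts over the control group. It lies in the same readthrough locus as MAGEA10.

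MAGEC2 (ENSG00000046774), which binds the ubiquitin ligase TRIM28, was at 44.1 to 49.8 TPM in knockdown and 27.3 to 44.6 TPM in control, a level per length near that of MAGEA6 (42.8 to 52.0 and 38.9 to 76.0 TPM). In CPM, MAGEC2 was at 63.3, 69.3 and 63.7 CPM in knockdown libraries 1, 2 and 3, against 60.3, 65.0 and 52.4 CPM in control libraries 1, 2 and 3, with overlap (log2 fold change 0.14, SE 0.14, edgeR adjusted p = 0.568). MAGEC3 (ENSG00000165509) had 22, 28 and 27 counts in knockdown libraries and 0 in each of the 3 control libraries. It was at least 12.3-fold higher in knockdown against a floor of 3 counts over the control group, and passed the test (edgeR adjusted p = 0.0355). The call was lost without knockdown library 1, 2 or 3 (edgeR adjusted p = 0.174, 0.180 and 0.178), and with all 6 libraries by limma-voom with 1 weight per group (adjusted p = 0.0590). The MAGEC sum followed MAGEC2, at 63.8 to 70.0 CPM in knockdown and 52.4 to 65.0 CPM in control (log2 fold change 0.16, SE 0.14, edgeR adjusted p = 0.528). In TPM the MAGEC sums did not overlap, at 44.7 to 50.5 in knockdown and 27.3 to 44.6 in control. XAGE2, the XAGE gene with counts, had 12, 14 and 9 counts in knockdown libraries, against 0, 0 and 8 counts in control libraries (edgeR adjusted p = 0.841).

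**Figure D3:**
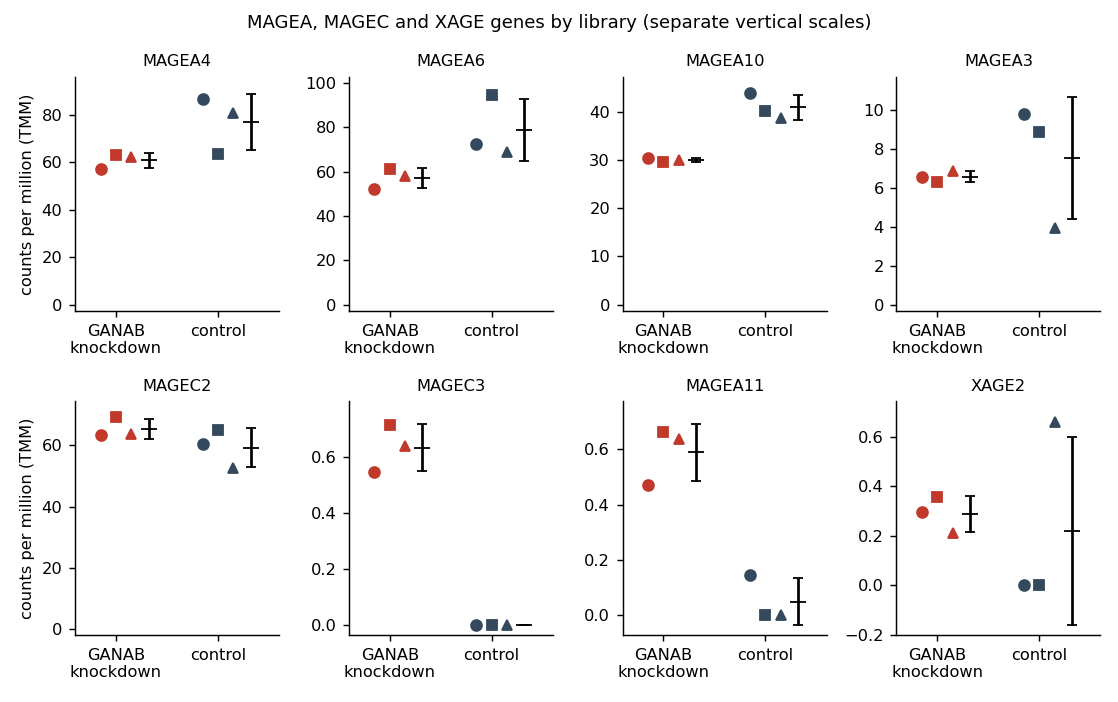
Expression in CPM of 8 MAGEA, MAGEC and XAGE genes by library, each panel with its own vertical scale. Circles, squares and triangles are libraries 1, 2 and 3 of each group, and black bars are mean ± SD (n = 3), which can reach below 0 where control libraries hold 0. MAGEA4, MAGEA6 and MAGEA10 were lower in knockdown without overlap, and MAGEC3 was at 0 in all 3 control libraries.

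The SPANX and MAGEC genes with counts lie in a block of chrX:141002591-142205290, and the MAGEA genes in a block of chrX:149688228-152769747. A window reaching 1000000 bases beyond each block, chosen after the values were seen, held 2 other tested genes around the first block, of which 0 were called by edgeR, DESeq2 or voom and 0 had an unadjusted p under 0.05. Around the MAGEA block it held 39 others, with 5 higher and 4 lower in knockdown. Over all 596 tested chromosome X genes outside the families, these windows included, 3.52% rose and 2.68% fell.

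Genes of related roles were read from lists of their own. Of all 19430 genes tested, edgeR called 4.59% higher and 3.72% lower, so 0 calls in a list this short is near those shares. Over the same genes DESeq2 called 1853 higher and 1802 lower, and voom 1703 and 2013. Of 45 other cancer-testis genes outside these families, 13 were tested and 0 were called in either direction by edgeR, with a median log2 fold change of -0.22. At an unadjusted p under 0.05, 0 were higher and 3 lower, DESeq2 called 0 higher and 3 lower, and voom 1 higher and 1 lower. The most abundant was IL13RA2, a decoy receptor for interleukin-13, at 149 to 161 CPM in knockdown and 189 to 212 CPM in control (edgeR adjusted p = 0.133). The related MAGE genes that many adult tissues express, such as MAGED1 and MAGEF1, gave 0 calls among 9 tested by edgeR, DESeq2 or voom, and 0 at an unadjusted p under 0.05, with a median log2 fold change of 0.35. Without overlap of the groups, 4 of these 9 were higher and 0 lower, beside 21.9% and 15.7% of all genes. Of the 13 other cancer-testis genes, 0 were higher and 4 lower without overlap. Of 11 tested partners of MAGE proteins, 0 rose by edgeR, with 0 higher at an unadjusted p under 0.05 or by DESeq2 or voom. RAD18, a ubiquitin ligase of DNA damage tolerance, fell (log2 fold change -0.96, SE 0.20, edgeR adjusted p = 0.0317). TRIM28 was at 365 CPM in knockdown and 341 CPM in control on average (edgeR adjusted p = 0.694).

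Among 33 tested genes of DNA methylation and chromatin silencing, 5 fell and 0 rose in knockdown, beside 3.72% and 4.59% of all genes, and the list's median log2 fold change was -0.13. At an unadjusted p under 0.05, 9 were lower and 2 higher, DESeq2 called 8 lower and 1 higher, and voom called 10 lower and 1 higher. These tools called more genes in general: of all 19430, DESeq2 called 1802 lower and 1853 higher, and voom 2013 and 1703. The share at an unadjusted p was not counted over all genes. DNMT1, which copies DNA methylation after replication, was at 64.0, 67.5 and 67.4 CPM in knockdown libraries 1, 2 and 3, against 152, 184 and 134 CPM in control libraries 1, 2 and 3. All knockdown values lay below all control values (log2 fold change -1.24, SE 0.15, edgeR adjusted p = 0.00709). UHRF1, which brings DNMT1 to newly copied DNA, averaged 44.8 ± 1.86 CPM in knockdown and 91.7 ± 19.6 CPM in control (SD, n = 3 each, log2 fold change -1.04, edgeR adjusted p = 0.0168). HELLS, a chromatin remodeller needed for DNA methylation, had a log2 fold change of -0.79 (edgeR adjusted p = 0.0141). The histone methyltransferase genes EZH2 (-0.83, edgeR adjusted p = 0.0112) and SUV39H1 (-0.97, edgeR adjusted p = 0.0393) also fell. HDAC3, the most abundant gene of the list per length, was at 122 CPM in knockdown and 138 CPM in control on average (edgeR adjusted p = 0.503). Whether these levels bear on the SPANX genes was not tested.

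Markers of other cells were set beside the SPANX values. No source used states that mouse reads were removed, so the values of smooth muscle, fibroblast, endothelial and leukocyte genes may hold reads of the host. Of 15 germ cell genes, 14 were under 1 TPM in all 6 libraries. Of these, DAZL, TDRD1, TNP1 and PRM2 were listed at 0 in all 6, while the spermatid gene PRM1 was above 0 in at least 1. The germ cell genes tested summed to 3.08 to 3.92 CPM in knockdown and 2.72 to 4.47 CPM in control, and 0 of 2 were called by edgeR, DESeq2 or voom or had an unadjusted p under 0.05. For the lists that follow, DESeq2 called 1853 higher and 1802 lower of all 19430 genes, and voom 1703 and 2013. Of 10 smooth muscle genes, 4 rose by edgeR (MYH11, TAGLN, ACTA2 and CNN1), beside 4.59% of all genes, with 6 higher by DESeq2, 6 by voom and 7 at an unadjusted p under 0.05. The list's summed level was 780 to 815 CPM in knockdown and 227 to 524 CPM in control. MYH11, the smooth muscle myosin heavy chain, was at 56.4 ± 1.66 CPM in knockdown and 3.39 ± 3.16 CPM in control (SD, n = 3 each, edgeR adjusted p = 0.0130). Of 6 tested fibroblast genes, 1 rose by edgeR, PDGFRB (log2 fold change 1.23, adjusted p = 0.0195), with 1 higher by DESeq2 and 2 by voom, and the summed level was 204 to 205 CPM in knockdown and 59.3 to 243 CPM in control. Endothelial genes (0 of 8 called by edgeR) summed to 28.4 to 33.8 CPM in knockdown and 25.4 to 115 CPM in control, with 1 higher and 1 lower at an unadjusted p under 0.05 and by DESeq2, and 1 higher by voom. That sum was mostly TIE1, while CDH5 (2.84 and 0.135 CPM on average) and ESAM (2.18 and 0.846 CPM) had higher means in knockdown, and the list's median log2 fold change was 0.71. Leukocyte genes (0 of 5 called by edgeR) summed to 57.0 to 57.6 CPM in knockdown and 70.9 to 258 CPM in control, with 1 lower at an unadjusted p under 0.05, by DESeq2 and by voom. CD68 made up most of that sum, and the list's median log2 fold change was 0.45. The most abundant gene per length was TAGLN for smooth muscle, FBLN1 for fibroblasts (45.8 CPM in knockdown and 31.2 CPM in control on average), TIE1 for endothelium (21.7 and 56.4 CPM), CD68 for leukocytes (51.8 and 139 CPM) and SYCP2 for germ cells (1.94 and 1.67 CPM). LUM of the fibroblast list and C1QB and C1QC of the leukocyte list were listed at 0 in all 6 libraries. Of the genes used to check the carcinoma line, the keratin KRT18 was at 193 ± 9.70 CPM in knockdown and 180 ± 60.9 CPM in control (SD, n = 3 each), while CDH1 and UPK3A, markers of epithelium and of urothelium, were under 1 TPM in all 6 libraries. Among the 13 of them tested, VIM and UPK1A rose by edgeR, with 4 higher by DESeq2 and 3 by voom, and VIM was at 5584 ± 78.2 CPM in knockdown and 2640 ± 642 CPM in control (SD, n = 3 each). The part of these markers in the SPANX result was not tested.

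**Figure D4:**
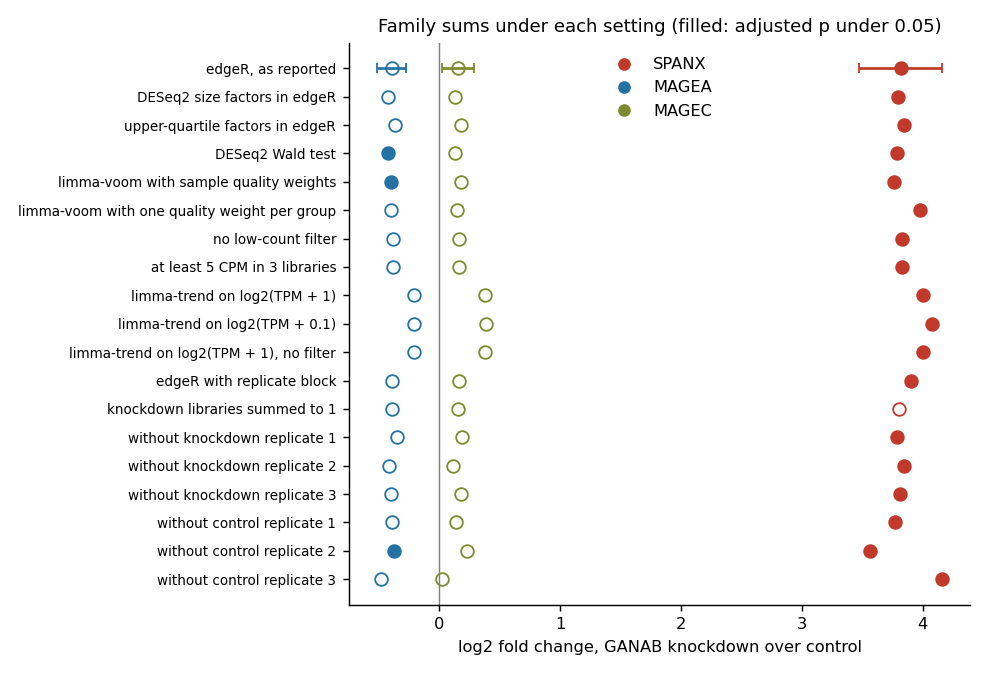
Log2 fold change of GANAB knockdown over control (horizontal axis) for the SPANX, MAGEA and MAGEC sums under each way of testing (vertical axis). Filled circles have an adjusted p under 0.05, and bars on the top line are ± SE. The SPANX sum stayed between 3.57 and 4.16 and was open only where the knockdown libraries were summed to 1, and the MAGEA sum was filled in 3 settings.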

How the data were processed

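The authors deposited estimated counts per gene (whole numbers, not normalized, 21503 genes) and TPM values (60233 genes). Every gene with counts had at least 15 in total and counts in at least 3 libraries. Genes without listed counts may therefore still have had a few reads. Tools named in the submitters' processing notes were fastp, Salmon and DESeq2, with the build GRCh38. For their versions, the transcript index and any removal of mouse reads, nothing is stated. Salmon splits reads of near-identical copies by estimate, so families were also summed. Per the labels' protocols, RNA was extracted with TRIzol.

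The members and gene lists were chosen with earlier results of these data known. Both groups were compared 2-sided with edgeR 4.0.16 (quasi-likelihood; R 4.3.3, limma 3.58.1) over all 6 libraries with filterByExpr, TMM scaling and Benjamini-Hochberg adjustment at 0.05 over 19430 genes, since 2073 were removed. The test was also run on simulated counts that gave all genes of a group the same spread, which does not bear on the call of any single gene. CPM used TMM library sizes of the counts, and TPM served for levels between genes. Floors are 3 counts and cover counting error only. Genes with at least 1 CPM in either group or a passing test were named with every library's value, and from each list up to 4 passing genes and the most abundant. SUV39H1, SPANXD, MAGEA11, MAGEA5, XAGE2, MAGED1, KRT18, CDH1, UPK3A, MAGEA2B, CDH5 and ESAM were named after their values were seen. So were DAZL, TDRD1, TNP1, PRM1, PRM2, LUM, C1QB and C1QC. Coordinates are from GENCODE release 29, promoters from RefSeq. DESeq2 1.42.0 was an alternative. Library numbers did not pair the samples. A result for 1 gene of the list of MAGE partners is not reported here.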

Additional observations from a re-analysis of the deposited data

How the results depend on the processing

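The SPANX sum kept its direction under all 18 alternatives and passed in 17, with log2 fold changes of 3.57 to 4.16. With the knockdown libraries summed to 1 it was 3.81 and missed the threshold, as did every other gene, since only the control libraries then gave the spread. The MAGEA sum passed with the DESeq2 Wald test (-0.42) and limma-voom with sample quality weights (-0.40), and leaving out each library gave -0.49 to -0.35. The XAGE sum ranged from -0.0817 to 6.28 when libraries were left out, and turned negative without control library 1. XAGE2 alone did the same (-0.0817). MAGEA3 was at 0.0494 on log2(TPM + 1), with or without a filter, and at 0.0653 on log2(TPM + 0.1). The number of genes that rose, 5 as reported, was 3 with voom quality weights, 2 with 1 weight per group, 2 with at least 5 CPM in 3 libraries (7 of the genes tested), 1 on unfiltered log2(TPM + 1), 0 with the knockdown libraries summed to 1, and 1 to 6 when a library was left out. The number that fell, 0 as reported, was 1 with DESeq2, 2 with voom quality weights and 0 to 3 when a library was left out. The cause was not tested. With the replicate number as a block, 3 rose, with SPANXC (adjusted p = 0.0766) and MAGEC3 (0.152) no longer called, among 352 genes higher and 214 lower over the whole table, against 892 and 722 without the block. The deviations of log CPM from the group mean correlated at 0.002 to 0.022 between same-numbered libraries, so the numbers were not taken as pairs. The median log2 fold change of all genes was 0.03 as reported, 0.23 on log2(TPM + 1), 0.28 on log2(TPM + 0.1), and 0.11 with the block or with 1 weight per group. XAGE gave no value with the 5 CPM filter or the TPM filter, and 6 families without counts gave none in the count tests. In all genes, DESeq2 called 1853 higher and 1802 lower, voom with quality weights 1703 and 2013, and fits without knockdown library 1, 2 or 3 called 53, 82 and 70 higher and 9, 33 and 18 lower. Depth limits MAGEC3, MAGEA5, MAGEA11 and XAGE2, which had at most 28 counts in a library.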
